A study of Mus musculus with 96 samples.

Results

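The cerebellum of untreated mice was compared between 18 and 2 months of age. The groups compared hold 7 of the 96 libraries of the series, chosen by the labels for region, treatment and age, namely 3 from naive mice of 18 months (replicates 3, 6 and 9) and 4 from naive mice of 2 months (replicates 12, 14, 17 and 20). All 7 were male C57BL/6J mice, with 1 library from each mouse and neither injections nor a genetic change given in the labels. The label of the younger mice says 2 months, whereas 3 months is the age in the series text. A second number in the library titles, whose meaning the labels do not give, differed between the ages, and what it marks cannot be told apart from age. The change was followed over all 17185 genes with enough counts to be tested, and the genes of neurons, synapses, glia, vessels, matrix, transcription and metabolism are described here. Immune genes are given by their counts. The fit also held the other cerebellum libraries of the series, 29 in all, which add to the estimate of the spread. With the 7 libraries alone, 330 genes passed in place of 411, 279 of them shared.

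The cerebellar cortex is built from a few cell types in a regular layout. Granule cells, small excitatory neurons, receive mossy fibres and send parallel fibres to Purkinje cells, whose inhibitory axons are the only output of the cortex and reach the deep nuclei. Stellate, basket and Golgi cells are inhibitory interneurons, and Bergmann glia are astrocytes whose processes wrap the Purkinje synapses. Ageing of brain tissue is known for a rise of glial and immune transcripts and for small changes of neuronal ones.

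The total count was 3637025 to 5515064 in the 4 young libraries and 5014473 to 8493605 in the 3 older ones. The levels below are CPM, counts per 1000000 counts of a library, and changes are log2 fold changes of 18 minus 2 months with their standard error (SE). Gabra6, a receptor subunit of granule cells, and Pcp2, a Purkinje cell gene, were present in all 7 libraries, at 401 to 544 and 243 to 361 CPM. Choroid plexus genes stood apart in the young mice. The 22 genes of that list summed to 209, 2010, 226 and 922 CPM in young replicates 12, 14, 17 and 20, and to 1958, 1870 and 2491 CPM in the older mice, with 0 of 22 passing the test below and 20 of 22 above 0. With a score of this list as a covariate, 238 genes passed in place of 411, 219 of them shared. Ttr, transthyretin of the choroid plexus, alone had 4.71, 981, 12.1 and 315 CPM in the young and 1035, 985 and 1394 CPM in the older mice. The deposited reads carry no strand, so a gene and an overlapping gene on the other strand cannot be told apart, and 48 of the 136 genes followed by name share exon positions with such a gene.

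Genes changed in both directions with age in the naive cerebellum. In edgeR's quasi-likelihood test, 411 of the 17185 genes passed at an adjusted p under 0.05 (2.39%), 228 higher (1.33%) and 183 lower (1.06%) at 18 months, while the median change of all tested genes was 0.01. The genes that rose had a median change of 0.78 and a median level of 14.7 CPM, and 89 of them changed by more than 1 on the log2 scale. The genes that fell had a median of -0.34 and a median level of 115 CPM, and 10 of them passed -1 while 139 changed by less than 0.5. The number of genes that passed was 243 without young replicate 12, 194 without older replicate 6 and 247 without older replicate 9. In all, 14 alternative analyses were run (another tool, scaling, filter, covariate or choice of libraries), and the number of them in which a gene also passed is given where it is under 14. Immune lists held 57 of the 228 genes that rose and 1 of the 183 that fell. Among genes under 5 CPM, 57 rose and 3 fell, whereas among the 2346 genes of 100 CPM and over, 16 rose and 98 fell (4.18%). The median change was 0.15 in the lowest of these classes and -0.06 in the highest. The median SE was 0.357 in the lowest class and 0.0716 in the highest, so small changes could pass the threshold mostly in abundant genes, and the sizes of the changes that passed are not comparable between classes. CPM ranges of the ages did not overlap for 223 of the genes that rose and 169 of those that fell, against 13.6% of all tested genes. In bulk tissue fewer cells of a type and less RNA per cell cannot be told apart.

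**Figure D1:**
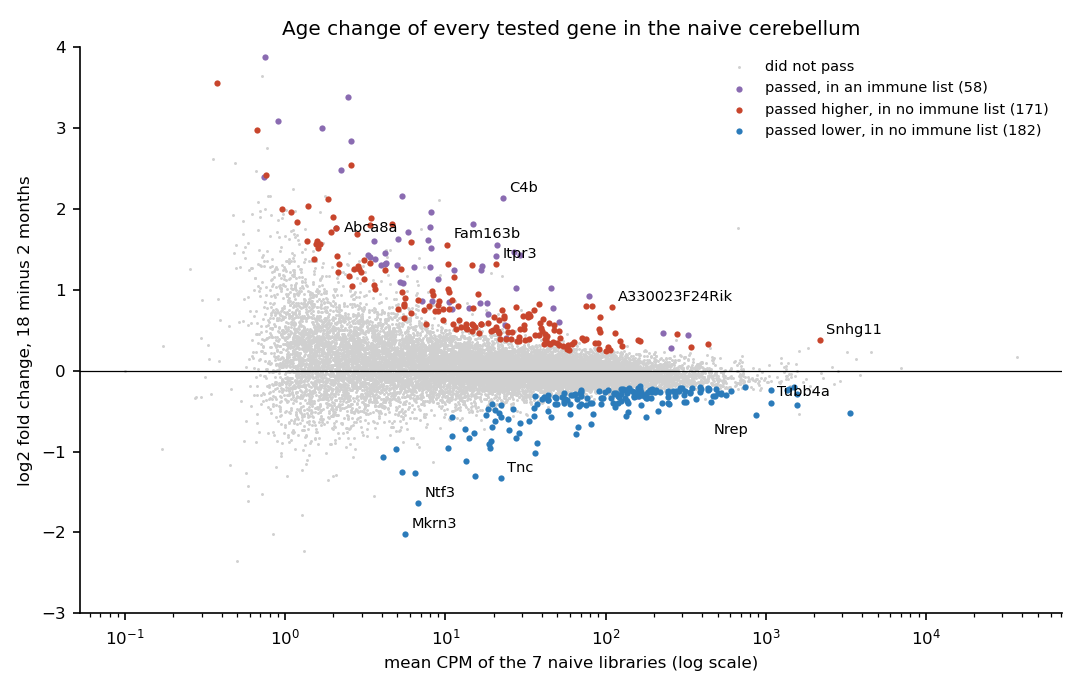
Each point is 1 of the tested genes, with the mean CPM of the 7 naive libraries on the x axis (log scale) and the log2 fold change of 18 minus 2 months on the y axis; colours mark genes that passed edgeR's test, in an immune list (58), higher outside these lists (171) or lower outside them (182), and 6 genes lie outside the axis. Genes that rose lie mostly at low levels with large changes, and genes that fell lie mostly to the right with small ones; the SE, and so the smallest change that can pass, is larger at low levels.

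The signed change had little relation to gene span, while longer genes passed more often, and X-linked genes held more falls than rises. Over 8503 protein-coding genes of at least 20 CPM, the change and the log10 of the gene span had a Spearman rho of 0.01 (across genes, which are not independent replicates). Among them the share that passed was 2.28% under 10 kb and 4.49% at 100 kb and over, with median levels of 51.0 and 67.9 CPM. Of the 517 tested genes on the X chromosome, 2 rose and 15 fell (2.9% lower, against 1.06% of all tested genes), with a median of -0.02. Protein-coding genes made up 215 of the genes that rose and 176 of those that fell.

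Outside the immune lists, the largest rises in genes of at least 5 CPM were in lipid transport, calcium release and membrane protein genes. Only genes whose levels did not overlap between the ages were picked for this, so their separation is not a further result. Itpr3, an inositol trisphosphate receptor that releases calcium from the endoplasmic reticulum, stood at 11.8, 13.7, 13.2 and 11.2 CPM in the 4 young mice and at 34.7, 30.5 and 29.7 CPM in the older ones. The groups lay far apart, with each older mouse well above each young one, and the change was 1.32 ± 0.12 (edgeR adjusted p = 1e-08). Abca8a, a lipid transporter of the ABC family, had 2.18, 2.92, 4.40 and 3.74 CPM in the young and 11.5, 9.30 and 8.58 CPM in the older mice, a change of 1.58 ± 0.26. Fam163b, a gene of a small brain membrane protein, had 3.63, 5.83, 2.47 and 9.89 CPM in the young mice and 19.4, 13.3 and 17.5 CPM in the older ones. Young replicate 20 came closest to the older mice, and the change was 1.56 ± 0.25 (edgeR adjusted p = 0.000314).

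Further genes with large rises cover cell surface, signalling and mitochondrial proteins. Tpbg, a membrane glycoprotein that inhibits Wnt signalling, had 7.25, 6.01, 5.77 and 16.3 CPM in the young and 30.3, 17.9 and 18.5 CPM in the older mice, so young replicate 20 lay just below the lowest older mouse. Its change was 1.31 ± 0.27, it passed in 13 of the 14 alternative analyses, and the opposite-strand 9330154J02Rik, which shares exon positions with it, changed by 1.22. Comp, a matrix protein of cartilage and vessels, had 3.08 to 3.57 CPM in the young and 6.95 to 9.17 CPM in the older mice, a change of 1.26 ± 0.24. Tspo, a mitochondrial outer membrane protein (0.98 ± 0.20), Sqor, which oxidises hydrogen sulphide (0.86 ± 0.18, 13 of 14 alternatives), and Pld4, a lysosomal nuclease (0.97 ± 0.17), also rose. Zc3hav1, an RNA-binding antiviral protein, Parp4, a poly-ADP-ribose polymerase family member, and Rnf213, a large ubiquitin ligase, rose by 1.31 ± 0.19, 0.95 ± 0.16 and 1.01 ± 0.23, the last in 12 of 14 alternatives. These 3, like Tspo and Pld4, stand in no immune list used here, and Zc3hav1 and Rnf213 are known to respond to interferon. Standing outside these lists does not show that a gene is not one of immune cells.

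Among the genes that fell were a ubiquitin ligase, a neurotrophin and genes of the matrix and of growth factor control. Mkrn3, an imprinted makorin ligase, had 10.2, 9.30, 6.60 and 7.04 CPM in the young and 2.49, 2.12 and 1.60 CPM in the older mice, a change of -2.02 ± 0.30. Ntf3, the neurotrophin NT-3 that signals through TrkC, had 7.25, 10.8, 12.4 and 8.35 CPM in the young and 2.49, 4.71 and 1.60 CPM in the older mice, a change of -1.64 ± 0.26. Tnc, the matrix glycoprotein tenascin C, had 32.1, 33.2, 28.0 and 25.5 CPM in the young and 14.6, 8.12 and 14.6 CPM in the older mice, a change of -1.32 ± 0.25. The levels of these 3 genes did not overlap between the ages, which was a condition for picking the genes with the largest changes. Gpr17, Car9, a carbonic anhydrase, Zfp57, a zinc finger factor of imprinting, Gcnt1, a glycosyltransferase, and Necab3 changed by -1.30, -1.27, -1.25, -1.11 and -1.02, with Car9 and Zfp57 passing in 11 and 9 of 14 alternatives. Pappa, a protease that frees insulin-like growth factors from their binding proteins, had 23.4, 26.2, 25.0 and 20.0 CPM in the young and 11.0, 11.9 and 14.6 CPM in the older mice, a change of -0.96 ± 0.15 (edgeR adjusted p = 0.000221). Ppp1r14c, an inhibitor of protein phosphatase 1, fell by 0.83 ± 0.16 on the log2 scale. Mybpc3, known as a cardiac myosin-binding protein and read here at 17.5 to 38.6 CPM, fell by 0.83 ± 0.17 on the log2 scale and passed in 13 of 14 alternatives.

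Lists of neuron types had medians slightly below 0, as did all tested genes of 100 CPM and over (-0.06). Of these abundant genes 4.86% passed, 4.18% of them all being lower. The neuron and synapse lists were not compared with genes of like level. Of 26 tested granule cell genes 0 rose and 3 fell (11.5%, against 2.39% of all genes tested), with 20 of 26 below 0 and a median of -0.09. Nrep, a small protein linked to neural regeneration, had 1108, 990, 968 and 902 CPM in the young mice and 671, 687 and 714 CPM in the older ones. All 3 older mice lay below the lowest young mouse, and the change was -0.55 ± 0.08 (edgeR adjusted p = 4.74e-05). Gabra6 changed by -0.31 ± 0.06, and Calb2, the calcium buffer calretinin, by -0.39 ± 0.09, the latter passing in 10 of 14 alternatives. Over the 26 granule cell genes the summed level was 8283 to 9762 CPM in the young and 7931 to 8516 CPM in the older mice, and these ranges overlapped.

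Of 26 Purkinje cell genes and 18 interneuron genes 0 passed in edgeR's test, with 19 of 26 and 12 of 18 below 0 and medians of -0.10 and -0.05. Whether the lists differ was not tested. Calb1, the calcium buffer calbindin of Purkinje cells, had 1148 to 1388 CPM in the young and 1133 to 1260 CPM in the older mice (-0.13 ± 0.09, edgeR adjusted p = 0.535). Pcp2, which acts on G protein signalling in Purkinje cells, had 308, 326, 361 and 243 CPM in the young and 282, 329 and 312 CPM in the older mice (-0.03 ± 0.14, edgeR adjusted p = 0.959). Values of the ages were interleaved for both genes. Of 20 genes of immature neurons and progenitors 0 passed, with a median of -0.03.

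**Figure D2:**
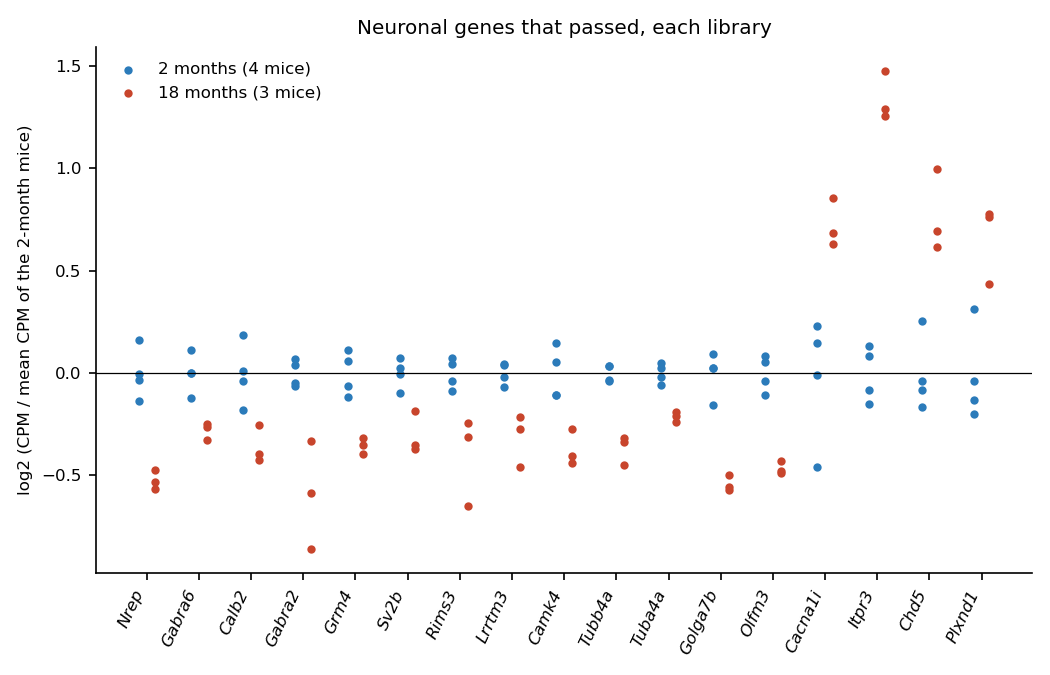
Each point is 1 naive cerebellum library, drawn as the log2 ratio of its CPM to the mean CPM of the 4 young mice (y axis), young in blue and older in red. The x axis holds 17 genes that passed edgeR's test and were chosen by hand. The title calls them neuronal, but Itpr3, Golga7b, Olfm3, Chd5 and others are in no list of neuron types. Bulk libraries do not give the cells of origin. For the 13 genes on the left the older mice lie below the young ones, and for the 4 on the right above them.

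GABA and glycine receptor genes mostly had lower levels in the older mice. Of 20 tested genes 17 had a negative change, 4 fell and 0 rose (20%), with a median of -0.22. Their summed level was 3270, 3168, 3058 and 3155 CPM in the young mice and 2843, 2746 and 2809 CPM in the older ones, with no overlap. Sums without overlap were common among the lists and do not mark out this one. Ionotropic glutamate receptors, postsynaptic genes, oligodendrocyte precursors, p53 targets and solute carriers were among the others. Gabra2, the alpha 2 subunit of the GABA-A receptor, had 39.5, 40.3, 36.8 and 37.2 CPM in the young and 25.6, 21.2 and 30.5 CPM in the older mice. The older mice spread more widely than the young ones, without reaching them, and the change was -0.63 ± 0.13 (edgeR adjusted p = 0.00393, passing in 13 of 14 alternatives). Gabbr1, a subunit of the metabotropic GABA-B receptor, changed by -0.20 ± 0.06 and passed in 3 of 14 alternatives.

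Among glutamate receptor genes 2 fell. Of 18 ionotropic glutamate receptor genes 1 fell (5.56%, against 2.39% of all tested genes). It was Gria4, an AMPA receptor subunit of Bergmann glia and granule cells (-0.21 ± 0.06, 4 of 14 alternatives). Of 10 genes of metabotropic receptors and their Homer scaffolds 1 fell (10%), and 9 of 10 had a negative change with a median of -0.14. As in several other lists, their summed level did not overlap, at 1180 to 1311 CPM in the young and 1041 to 1131 CPM in the older mice. The gene that fell, Grm4, is the presynaptic receptor of parallel fibres. It had 378, 335, 364 and 323 CPM in the young and 275, 266 and 281 CPM in the older mice, a change of -0.38 ± 0.09 that passed in 10 of 14 alternatives.

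The genes of synaptic vesicle release and synaptic adhesion that passed fell by small amounts. Of 46 presynaptic genes 36 had a negative change and 3 fell (6.52%), with a median of -0.12 and a summed level of 15800 to 16390 CPM in the young and 14410 to 15330 CPM in the older mice. Sv2b, a vesicle glycoprotein, had 283, 267, 251 and 273 CPM in the young and 207, 210 and 236 CPM in the older mice, a change of -0.33 ± 0.07. Rims3, an active zone protein, changed by -0.42 ± 0.10 and Rab3c, a vesicle GTPase, by -0.27 ± 0.07. These 3 genes passed in 12, 12 and 6 of 14 alternatives. Of 49 postsynaptic and adhesion genes 3 fell and 0 rose (6.12%, against 2.39% of all tested genes). Lrrtm3, an adhesion protein that binds neurexins, had 200, 200, 192 and 186 CPM in the young and 141, 161 and 168 CPM in the older mice, a change of -0.34 ± 0.07 (12 of 14 alternatives). Camk4, a calcium-dependent kinase abundant in granule cells, had 277, 259, 232 and 232 CPM in the young and 184, 207 and 189 CPM in the older mice, a change of -0.40 ± 0.08 (edgeR adjusted p = 0.00503). Nlgn3, a neuroligin, changed by -0.28 ± 0.08 and passed in 6 of 14 alternatives.

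Few channel genes passed, and both channel lists had medians slightly below 0. Of 50 potassium channel genes 1 rose and 1 fell (4%, against 2.39% of all tested genes). In that list 33 of 50 genes lay below 0, with a median of -0.10. The gene that fell was Kcnn2, a calcium-activated potassium channel, which changed by -0.41 ± 0.10 and passed in 9 of 14 alternatives. Of 40 sodium and calcium channel genes, 2 rose and 0 fell (5%), Itpr3 (above) and Cacna1i. Here 23 of 40 genes lay below 0, with a median of -0.04. Cacna1i, a T-type calcium channel, had 30.5, 19.0, 25.8 and 28.8 CPM in the young and 40.2, 41.8 and 47.1 CPM in the older mice, a change of 0.70 ± 0.11 (edgeR adjusted p = 0.000231).

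Among cytoskeleton genes 3 tubulins and Dpysl4 fell. Of 44 genes of the axonal cytoskeleton 34 had a negative change, 4 fell and 0 rose (9.09%), with a median of -0.11. Tubb4a, a beta-tubulin of neurons and oligodendrocytes, had 1224, 1169, 1227 and 1164 CPM in the young mice and 959, 875 and 948 CPM in the older ones. The highest older mouse lay far below the lowest young one, and the change was -0.40 ± 0.05 (edgeR adjusted p = 1.06e-05). Tuba4a, an alpha-tubulin, had 477, 469, 456 and 443 CPM in the young and 391, 404 and 398 CPM in the older mice, a change of -0.24 ± 0.05. Tuba1a, the alpha-tubulin of growing neurites, changed by -0.28 ± 0.06 (13 of 14 alternatives), and Dpysl4, a collapsin response mediator protein, by -0.40 ± 0.08. Stk16, which overlaps Tuba4a on the other strand, changed by -0.18 and did not pass.

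Receptors for axon guidance cues were among the few neuronal lists with rises and no fall. Of 69 genes 3 rose and 0 fell (4.35%), with a median of -0.04. Plxnd1, a semaphorin receptor, had 16.7, 15.0, 15.7 and 21.3 CPM in the young and 29.4, 23.2 and 29.1 CPM in the older mice, a change of 0.63 ± 0.13 (edgeR adjusted p = 0.00474). Plxnc1, another semaphorin receptor, changed by 0.56 ± 0.14 and Unc5c, a netrin receptor, by 0.24 ± 0.06, passing in 8 and 6 of 14 alternatives. Of 66 growth factor genes 2 fell (3.03%, against 2.39% of all tested genes). These were Ntf3 (above) and Erbb4, a neuregulin receptor of interneurons (-0.57 ± 0.13, 11 of 14 alternatives). No gene passed in edgeR's test among 58 genes of Wnt, Notch and Hedgehog signalling and 34 neuropeptide genes, with medians of 0.01 and -0.05.

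Several strongly expressed genes outside the lists of neurons changed with little spread. Golga7b, a partner of palmitoylating enzymes, had 210, 220, 185 and 210 CPM in the young and 146, 140 and 139 CPM in the older mice, a change of -0.57 ± 0.08 (edgeR adjusted p = 2.61e-05). Olfm3, a secreted olfactomedin of synapses, had 256, 250, 224 and 235 CPM in the young and 173, 172 and 179 CPM in the older mice, a change of -0.50 ± 0.07. Cdk16, a cyclin-dependent kinase of postmitotic neurons, changed by -0.31 ± 0.05. Among all tested genes of 100 CPM and over 16 rose and 98 fell. Snhg11, a transcript that hosts small nucleolar RNAs, was the gene given here that rose. It had 2046, 1840, 1873 and 1858 CPM in the young and 2611, 2442 and 2501 CPM in the older mice, a change of 0.38 ± 0.06 (edgeR adjusted p = 0.000606).

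Several astrocyte genes fell. Of 34 genes of Bergmann glia and astrocytes, 6 fell and 1 rose (20.6%), with a median of -0.07. Fabp7, a fatty acid-binding protein of radial and Bergmann glia, had 33.4, 31.0, 26.1 and 27.7 CPM in the young and 19.0, 15.2 and 21.3 CPM in the older mice, a change of -0.73 ± 0.18 (9 of 14 alternatives). Atp1b2, a sodium pump subunit of astrocytes, had 1801, 1745, 1451 and 1794 CPM in the young and 1487, 1296 and 1462 CPM in the older mice. Young replicate 17 lay below the highest older mouse, and the change was -0.29 ± 0.07 (10 of 14 alternatives). Hepacam, an adhesion protein of astrocyte endfeet (-0.24 ± 0.06), Acsbg1, a fatty acyl-CoA synthetase (-0.23 ± 0.06), and the glutamate transporter gene Slc1a3 (-0.23 ± 0.06) passed in 5 of 14 alternatives each. Gfap, the astrocyte intermediate filament, which is also in the immune class as a marker of reactive astrocytes, was the gene that rose, from 172 to 236 CPM in the young to 253 to 289 CPM in the older mice (0.47 ± 0.10, 13 of 14 alternatives).

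Several myelin genes fell. Of 22 myelin genes 8 fell and 0 rose (36.4%), with 5 above 0 and a median of -0.23. The summed myelin level overlapped, at 7709 to 9878 CPM in the young and 7570 to 8624 CPM in the older mice. Of 24 genes of precursors and new oligodendrocytes 2 fell (8.33%), with 22 of 24 below 0 and a median of -0.18. The larger of these falls was Gpr17, a receptor of new oligodendrocytes, with 16.7 to 25.2 CPM in the young and 8.08 to 9.17 CPM in the older mice (-1.30 ± 0.21). Tspan2, a tetraspanin of myelin, changed by -0.37 ± 0.08 and Fa2h, which hydroxylates the fatty acids of myelin lipids, by -0.49 ± 0.11, passing in 13 and 11 of 14 alternatives.

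**Figure D3:**
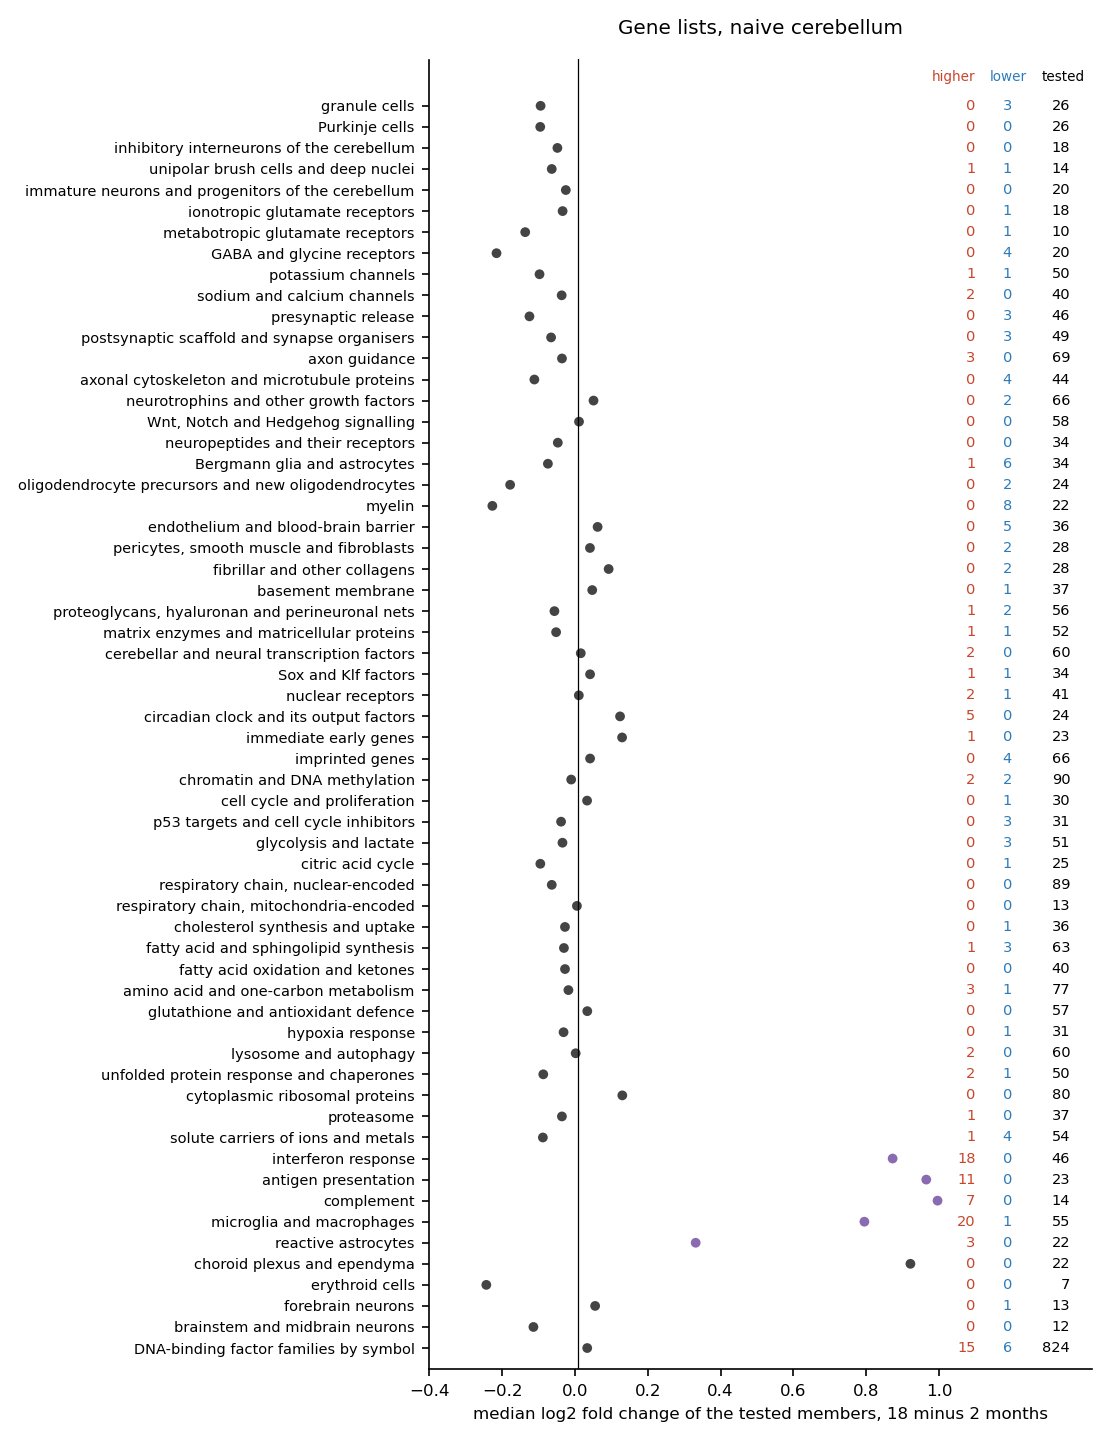
Each point is the median log2 fold change of the tested members of 1 gene list (x axis; lists on the y axis), with immune lists in purple and the numbers of members that passed higher, passed lower and were tested at the right; the vertical line is the median of all tested genes, 0.01. Most lists of neurons and metabolism lie slightly left of the line, and the lists that lie far to the right are the immune lists and the choroid plexus list, in which 0 of 22 genes passed.

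In vessels, the genes that fell encode transporters and enzymes of the blood-brain barrier, while most genes of the list did not pass. Of 36 endothelial genes 5 fell and 0 rose (13.9%), although 22 of 36 had a positive change and the median was 0.06. Tfrc, the transferrin receptor that carries iron into the brain, had 83.6, 74.2, 85.5 and 76.9 CPM in the young and 50.8, 51.6 and 48.1 CPM in the older mice. The older mice lay close together and far below the lowest young one, and the change was -0.70 ± 0.11 (edgeR adjusted p = 0.000221). Car4, a carbonic anhydrase on the surface of capillaries, had 167, 162, 169 and 135 CPM in the young and 109, 115 and 115 CPM in the older mice, a change of -0.51 ± 0.09. The amino acid transporter genes Slc7a5 and Slc38a5 changed by -0.37 ± 0.10 and -1.07 ± 0.29 and passed in 8 and 6 of 14 alternatives. Slc38a5 was low, at 4.18 to 5.62 CPM in the young and 2.24 to 2.79 CPM in the older mice.

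Ftl1, the ferritin light chain that stores iron, had 289, 323, 322 and 300 CPM in the young and 362, 416 and 377 CPM in the older mice. Its change was 0.29 ± 0.07 (11 of 14 alternatives). Ftl1 has near-identical copies in the genome, and reads shared with them are uncertain. In the list of 54 solute carriers of ions and metals, 1 gene rose, Ftl1, and 4 fell (9.26%), among them Slc8a1, a sodium-calcium exchanger (-0.33 ± 0.09, 9 of 14 alternatives), and Atp1b1, the neuronal sodium pump subunit (-0.21 ± 0.06, 5 of 14 alternatives).

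In the matrix lists between 1 and 3 genes passed each. Of 28 collagen genes 2 fell (7.14%), of 37 basement membrane genes 1 fell (2.7%), of 56 proteoglycan and perineuronal net genes 2 fell and 1 rose (5.36%), and of 52 matrix enzyme genes 1 rose and 1 fell (3.85%), against 2.39% of all tested genes. Col23a1, a transmembrane collagen, had 12.9, 10.9, 16.8 and 12.8 CPM in the young and 9.17, 6.00 and 8.18 CPM in the older mice, a change of -0.81 ± 0.19 (11 of 14 alternatives). Chst15, which sulphates chondroitin chains, changed by -0.37 ± 0.10 and Plod1, which hydroxylates lysines of collagen, by -0.47 ± 0.12, in 8 of 14 alternatives each. Prelp, a proteoglycan that anchors basement membranes, had 20.3, 33.0, 19.5 and 29.7 CPM in the young and 33.4, 45.6 and 36.5 CPM in the older mice, a change of 0.56 ± 0.15 (7 of 14 alternatives). Young replicate 14 reached almost the lowest older mouse. The young mice with more Prelp, replicates 14 and 20, also had the higher choroid plexus sums (2010 and 922 CPM, against 209 and 226 CPM). Among the older mice the highest Prelp level was in replicate 6, which had the lowest sum (1870 CPM). A link between these levels was not tested. Adamts6, a metalloprotease, changed by 0.75 ± 0.18 (10 of 14 alternatives).

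Among 824 tested genes of DNA-binding factor families, 15 rose and 6 fell (2.55%, against 2.39% of all tested genes), with a median of 0.03. Foxo1, a forkhead factor under control of insulin signalling, had 29.2, 24.4, 26.1 and 27.0 CPM in the young and 43.2, 46.9 and 39.3 CPM in the older mice. The groups did not overlap, and the change was 0.67 ± 0.10 (edgeR adjusted p = 0.000117). Ets2, an ETS factor of the growth factor response, had 101, 97.3, 87.4 and 99.1 CPM in the young and 67.4, 69.9 and 65.6 CPM in the older mice, a change of -0.53 ± 0.07 (edgeR adjusted p = 2.63e-05). Klf13, a Krüppel-like repressor, had 333, 367, 315 and 342 CPM in the young and 255, 286 and 252 CPM in the older mice, a change of -0.39 ± 0.07. Klf6, another member of that family, changed in the other direction, from 30.2 to 45.9 CPM in the young to 55.0 to 64.9 CPM in the older mice (0.57 ± 0.12, 13 of 14 alternatives).

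Steroid and homeobox factors were also among the genes that rose. Nr3c2, the mineralocorticoid receptor, had 42.2, 37.4, 34.1 and 34.1 CPM in the young and 54.4, 52.0 and 46.3 CPM in the older mice, a change of 0.43 ± 0.09 (edgeR adjusted p = 0.00393). Six4, a homeobox factor, had 0.911 to 2.42 CPM in the young and 4.20 to 5.98 CPM in the older mice, a change of 1.37 ± 0.28. Mef2c, an activity-dependent factor (0.30 ± 0.08), Mybl1, a MYB factor (0.73 ± 0.18), and Pou3f1, a POU factor at 2.46 ± 0.973 CPM in the older mice (SD, n = 3), passed in 4 of 14, 10 of 14 and, of those that gave it a value, 4 of 13 alternatives. Of 60 cerebellar and neural transcription factors the 2 that passed were Mef2c and Pou3f1 (3.33%, against 2.39% of all tested genes). Zbtb20, a zinc finger repressor, had 350, 409, 403 and 395 CPM in the young and 496, 509 and 488 CPM in the older mice, a change of 0.33 ± 0.07 (13 of 14 alternatives). The overlapping Gm9968 on the other strand changed by 0.76 and also passed.

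Several clock genes rose. Of 24 tested genes of the circadian clock and its output factors 5 rose and 0 fell (20.8%). The list had 8 of 24 genes below 0 and a median of 0.12. Its summed level was 2156 to 2282 CPM in the young and 2379 to 2485 CPM in the older mice. No time of day of collection was among the sample labels used here, and its part in these levels was not tested. Per3, a period gene that represses the CLOCK and BMAL1 activators, had 66.7, 85.1, 92.9 and 71.0 CPM in the young and 111, 112 and 110 CPM in the older mice. The older mice lay closer together than the young ones, and the change was 0.47 ± 0.09 (edgeR adjusted p = 0.00136). Per2, the related period gene, had 28.3, 32.4, 33.8 and 36.5 CPM in the young and 49.6, 52.98 and 52.0 CPM in the older mice, passing in 9 of 14 alternatives. Bhlhe41, a repressor that binds E-boxes, had 155, 143, 133 and 148 CPM in the young and 191, 194 and 183 CPM in the older mice. Hlf, a PAR bZIP activator of clock output, had 77.1, 76.9, 85.8 and 79.6 CPM in the young and 103, 98.3 and 108 CPM in the older mice.

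The promoters of these genes are shown because CLOCK and BMAL1 bind the E-box CACGTG. RefSeq's table (GRCm38.p6) matched 3 of these genes, and had no entry for Per2. The 3 lie on the minus strand, at chr6:145865559-145865670 for Bhlhe41, chr4:151044666-151044915 for Per3 and chr11:90390918-90391167 for Hlf, and are written 5′ to 3′ with an E-box in capitals where one was found.
Bhlhe41: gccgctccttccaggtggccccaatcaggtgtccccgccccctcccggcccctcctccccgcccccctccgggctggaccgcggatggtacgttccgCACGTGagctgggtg
Per3: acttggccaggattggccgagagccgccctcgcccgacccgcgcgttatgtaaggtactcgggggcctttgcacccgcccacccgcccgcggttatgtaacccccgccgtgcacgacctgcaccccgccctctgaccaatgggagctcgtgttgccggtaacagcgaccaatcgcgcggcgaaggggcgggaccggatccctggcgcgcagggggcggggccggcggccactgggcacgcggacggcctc
Hlf: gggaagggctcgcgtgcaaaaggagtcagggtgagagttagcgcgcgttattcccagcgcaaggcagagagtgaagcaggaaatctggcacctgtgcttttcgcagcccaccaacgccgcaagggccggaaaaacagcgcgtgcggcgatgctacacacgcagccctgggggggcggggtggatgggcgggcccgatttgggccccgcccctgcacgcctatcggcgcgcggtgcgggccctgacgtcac

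Each window searched was the 250 bases before the RefSeq start. For Bhlhe41 only its first 112 bases are shown, up to the annotated gene start. The Bhlhe41 window held 1 E-box, 153 bases before the RefSeq start (from base 98 of those shown), and those of Per3 and Hlf held 0. On both strands an E-box was found in 9.52% of the promoters of tested genes (1109 of 11644), 8.7% of those of genes that rose and 7.69% of those of genes that fell. The shares of the CCAAT box (CCAAT) were 40.3%, 43.5% and 36.2%, and those of the GC box (GGGCGG) were 61.9%, 50.3% and 58.5%. Outside the immune lists, 59.2% of the promoters of genes that rose held a GC box.

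In the imprinted, chromatin and growth lists few genes passed. Of 66 imprinted genes 4 fell and 0 rose (6.06%, against 2.39% of all tested genes). Among those that fell was Inpp5f, a phosphoinositide phosphatase (-0.26 ± 0.07, 7 of 14 alternatives). Of 90 chromatin genes 2 rose and 2 fell (4.44%). Cbx6, a Polycomb subunit, changed by -0.25 ± 0.06 (9 of 14 alternatives), while Chd5, a neuronal chromatin remodeller, and Hdac7, a histone deacetylase, changed by 0.75 ± 0.18 and 0.48 ± 0.12 (11 and 7 of 14 alternatives). Ccnd1, cyclin D1 of the cell cycle start, had 43.5, 40.3, 39.3 and 40.9 CPM in the young and 26.9, 30.5 and 27.7 CPM in the older mice, a change of -0.55 ± 0.10. It was the 1 of 30 cell cycle genes that passed (3.33%). Trp53inp2, an autophagy protein, and Ei24, a p53 target, changed by -0.34 ± 0.07 and -0.21 ± 0.05 (13 and 6 of 14 alternatives). In their list, p53 targets and cell cycle inhibitors, 3 of 31 genes fell and 0 rose (9.68%). Of 23 immediate early genes 1 rose (4.35%), Atf3 (1.60 ± 0.43, 5 of the 13 alternatives that gave it a value), at 0.440 to 0.911 CPM in the young and 1.71 to 2.83 CPM in the older mice.

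A pair of overlapping genes on chromosome 1 rose with little spread. A330023F24Rik, the host transcript of the microRNAs miR-29b-2 and miR-29c (chr1:194976375-195037904, plus strand, GRCm38), had 82.0, 82.9, 87.2 and 79.6 CPM in the young and 141, 148 and 146 CPM in the older mice. The groups lay far apart, with little spread in each, and the change was 0.78 ± 0.09 (edgeR adjusted p = 2.37e-06). Cd46, a complement regulatory protein on the opposite strand (chr1:195036826-195092249), had 28.1, 30.6, 28.9 and 25.7 CPM in the young and 50.4, 49.1 and 54.0 CPM in the older mice, a change of 0.82 ± 0.13. They share 1079 exonic bases (chr1:195036826-195037904), 11.5% of the exons of A330023F24Rik and 14.2% of those of Cd46, and the unstranded reads there cannot be assigned. Both mature microRNAs lie in that stretch on the plus strand, at chr1:195037091-195037113 and chr1:195037600-195037621. They are shown from RefSeq (GRCm38.p6), since they carry the same seed, bases 2 to 8 in capitals, and 19 of their first 22 positions are the same.
mmu-miR-29b-3p: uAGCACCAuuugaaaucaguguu
mmu-miR-29c-3p: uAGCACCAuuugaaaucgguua

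The mature microRNAs were not measured in these libraries. The miR-29 family is known to target collagen and other matrix messages. Of 28 collagen genes 2 fell, and the median of the list was 0.09.

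Most lists of energy metabolism genes had medians slightly below 0, with a few falls. Of 51 glycolysis and lactate genes 3 fell and 0 rose (5.88%, against 2.39% of all tested genes). Of 25 citric acid cycle genes 1 fell (4%), with 21 of 25 below 0 and a median of -0.10. The citric acid cycle genes summed to 4770 to 4944 CPM in the young and 4544 to 4680 CPM in the older mice, with no overlap, as in several other lists. Pfkp, the platelet type of phosphofructokinase, had 262, 268, 245 and 277 CPM in the young and 232, 217 and 220 CPM in the older mice, a change of -0.27 ± 0.06 (edgeR adjusted p = 0.00474). Dlat, a subunit of pyruvate dehydrogenase (-0.28 ± 0.07), and Slc2a3, the neuronal glucose transporter (-0.29 ± 0.08), passed in 9 and 5 of 14 alternatives. No gene passed in edgeR's test among 89 nuclear and 13 mitochondrial genes of the respiratory chain, 40 genes of fatty acid oxidation and 57 of glutathione and antioxidant defence, with medians of -0.06, 0.01, -0.03 and 0.03. Of the 89 nuclear genes of the respiratory chain 64 had a negative change.

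Of 77 amino acid and one-carbon genes 3 rose and 1 fell (5.19%), with 45 of 77 below 0, and of 63 fatty acid and sphingolipid genes 1 rose and 3 fell (6.35%). The falls were Slc7a5, Ugt8a, Fa2h and Acsbg1. Maob, the monoamine oxidase of astrocytes, had 18.0, 19.3, 15.7 and 20.2 CPM in the young and 28.9, 31.6 and 29.1 CPM in the older mice. Each older mouse was above each young one, and the change was 0.68 ± 0.12 (edgeR adjusted p = 0.000786). The consecutive urea cycle enzymes Ass1, argininosuccinate synthase, and Asl, argininosuccinate lyase, rose by 0.78 ± 0.21 and 0.59 ± 0.11. Asl had 14.3, 15.7, 13.2 and 16.7 CPM in the young and 25.3, 21.7 and 22.1 CPM in the older mice, and Ass1 passed in 7 of 14 alternatives. Cers4, a ceramide synthase, had 58.4, 56.1, 62.4 and 48.6 CPM in the young and 71.5, 68.2 and 81.4 CPM in the older mice, a change of 0.35 ± 0.08 (12 of 14 alternatives). Of 36 cholesterol genes 1 fell (2.78%, against 2.39% of all tested genes), Hmgcs1, the synthase of the mevalonate pathway (7 of 14 alternatives).

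Few lysosome and chaperone genes passed, and ribosomal protein genes lay slightly above 0 without passing. Of 60 lysosome and autophagy genes 2 rose and 0 fell (3.33%, against 2.39% of all tested genes). Man2b1, a lysosomal mannosidase, changed by 0.33 ± 0.09 (3 of 14 alternatives). Of 50 genes of the unfolded protein response and chaperones 2 rose and 1 fell (6%). Most of that list, 37 of 50, lay below 0, with a median of -0.09. Hspa2, an HSP70 chaperone, had 25.2, 25.5, 26.9 and 26.6 CPM in the young and 34.5, 39.0 and 39.7 CPM in the older mice, a change of 0.51 ± 0.11. The small heat shock protein gene Hspb8 changed by 0.54 ± 0.15 (5 of 14 alternatives) and Dnajb11, a co-chaperone of the endoplasmic reticulum, by -0.30 ± 0.08 (7 of 14 alternatives). Of 80 ribosomal protein genes 77 had a positive change and 0 passed in edgeR's test, with a median of 0.13. Their summed level overlapped between the ages, at 7901 to 9429 CPM in the young and 9291 to 10020 CPM in the older mice. In the proteasome list 1 of 37 genes rose (2.7%), Psmb8 (1.33 ± 0.28, 13 of 14 alternatives), the interferon-induced subunit, which overlaps Gm20496.

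Older cerebella of other groups were set beside the naive ones. These were 18-month mice given PBS on 7 days (4 mice), 19-month mice given PBS on 24 days (4 mice, called long PBS) and 22-month mice given PBS on 7 days (3 mice), also male C57BL/6J. Against the same young naive mice, 699 genes passed at 18 months with PBS (4.07%), 591 with long PBS and 1182 at 22 months, and 294, 266 and 312 of the 411 genes passed there in the same direction, with 0 in the opposite one. These comparisons share the young controls, so the counts are not independent of the naive comparison. Between naive and PBS mice of 18 months 0 of 17185 genes passed in edgeR's test (0%), with 571 at an unadjusted p under 0.05. Naive mice and injected mice also differ in the second title number, which cannot be told apart from the injections.

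These libraries entered the same fit and so its estimate of the spread, but not the naive fold changes. Their levels of the genes below were mostly near those of the naive 18-month mice. Itpr3 had 25.3 to 32.0 CPM in PBS mice of 18 months, 28.2 to 34.1 with long PBS and 27.2 to 29.9 at 22 months. Tubb4a had 897 to 928, 941 to 1023 and 868 to 952 CPM in these groups, and Ntf3 had 0.971 to 4.21, 2.40 to 3.52 and 1.87 to 3.80 CPM. Each of these ranges lay outside that of the young naive mice. Fam163b reached 22.3 to 26.2 CPM at 22 months, against 14.1 to 20.4 CPM in PBS mice of 18 months. That difference was 0.66 ± 0.20 and did not pass (edgeR adjusted p = 0.112).

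Per2 had lower levels at 22 months than in the other older groups. It had 46.0 to 73.8 CPM in PBS mice of 18 months and 44.6 to 60.0 CPM with long PBS, but 34.4, 43.1 and 37.9 CPM at 22 months, next to 28.3 to 36.5 CPM in young naive mice. The change of 22-month against young mice was 0.21 ± 0.17 (edgeR adjusted p = 0.529), and that against PBS mice of 18 months was -0.58 ± 0.16 (edgeR adjusted p = 0.0869). Per3 in the same mice had 122.6 to 128.9 CPM at 22 months and 117 to 142 CPM at 18 months with PBS. Tfrc had 61.4 to 67.7 CPM at 22 months and 41.9 to 56.2 CPM at 18 months with PBS, a difference of 0.31 ± 0.11 that did not pass (edgeR adjusted p = 0.159). Between PBS mice of 22 and 18 months, which share no library with the naive comparison, 27 genes passed (0.157%). Of the 411 genes 5 were among them in the same direction and 1 in the opposite one, with Gfap and C4b among those that rose further.

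**Figure D4:**
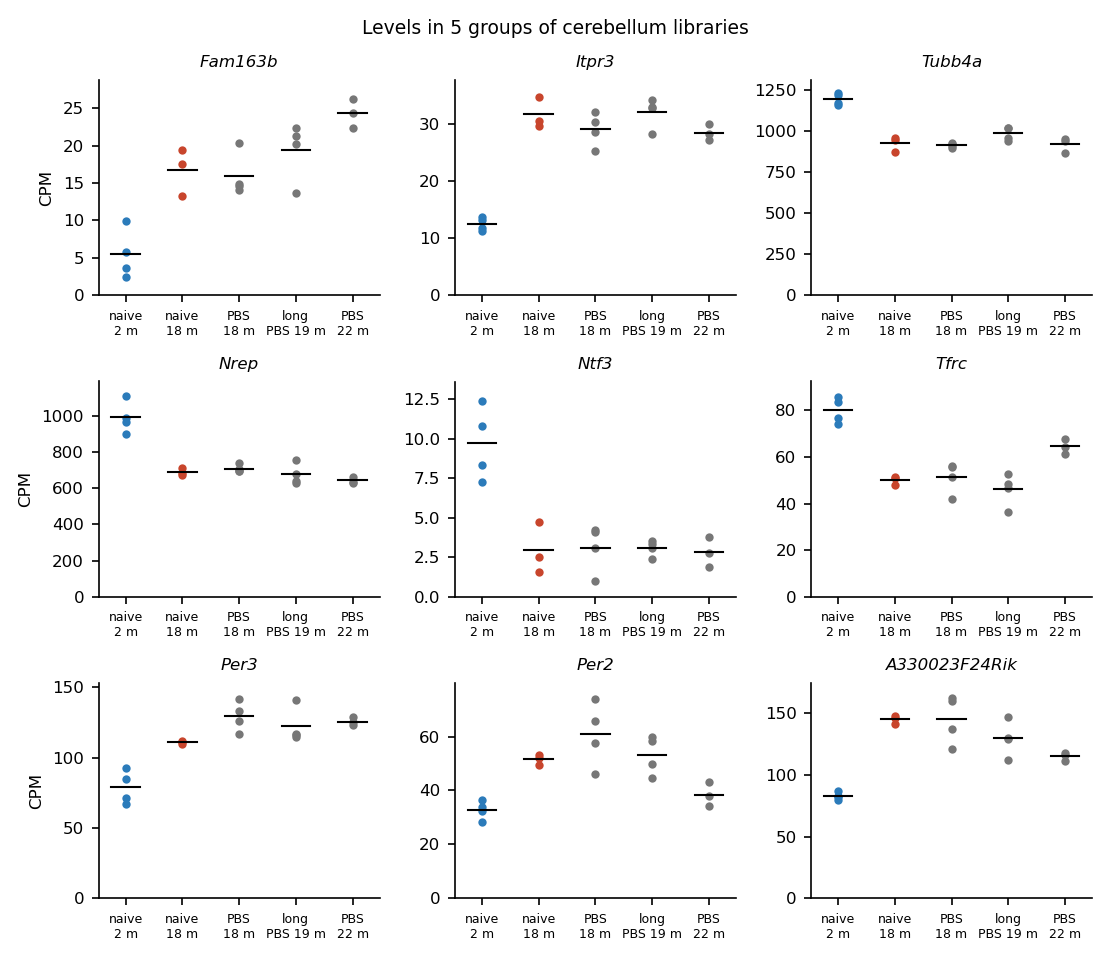
Each point is the CPM (y axis) of 1 cerebellum library in 5 groups (x axis: naive 2 months in blue, naive 18 months in red, and 3 PBS groups of 18, 19 and 22 months in grey), for 9 genes, with the group mean as a line. The 4 older groups lie on one side of the young mice for Fam163b, Itpr3, Tubb4a, Nrep, Ntf3, Tfrc, Per3 and A330023F24Rik, while for Per2 the 22-month mice (34.4 to 43.1 CPM) reach down to the young range.

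The age change was then compared with that of the cortex and hippocampus of the same mice, by a test of the difference itself over 87 libraries. Libraries low in the markers of their own region stood apart in the other regions. They were 3 cortex libraries, among them young naive replicate 14, and 4 hippocampus libraries, among them young naive replicates 14 and 20, against 0 in the cerebellum. Between cerebellum and cortex 8 of 19490 genes passed in edgeR's test (0.041%), 7 of them from immune lists and the other Fam163b. Between cerebellum and hippocampus 10 passed (0.0513%). Leaving out 1 naive mouse at a time left 1 to 6 genes against the cortex and 0 to 9 against the hippocampus. Without young mouse 14 the hippocampus comparison gave 0 genes in edgeR's test, with 1304 at an unadjusted p under 0.05, and without the libraries low in own-region markers it gave 15, 5 of them shared.

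Fam163b changed by 1.56 ± 0.31 in cerebellum, against -0.12 ± 0.19 in cortex and -0.15 ± 0.19 in hippocampus. The difference was 1.68 ± 0.36 against the cortex (edgeR adjusted p = 0.0421) and 1.70 ± 0.36 against the hippocampus (edgeR adjusted p = 0.0286). Without the libraries low in own-region markers these values were 1.46 and 1.84, with edgeR adjusted p values of 0.0256 and 0.00126. Without young mouse 14 the hippocampus difference was 1.78 and did not pass (edgeR adjusted p = 0.0966), and with the mouse as a block the cortex difference lost its call (edgeR adjusted p = 0.0515). A330023F24Rik (0.98 ± 0.17), Cd46 (1.07 ± 0.21) and Cers4 (0.57 ± 0.12) also differed between cerebellum and hippocampus. Without the low libraries the differences were 0.75, 0.74 and 0.43, of which that of A330023F24Rik passed. Trank1, named after its values were seen, changed by 0.79 ± 0.13 in the cerebellum and -0.34 ± 0.13 in the hippocampus, a difference of 1.13 ± 0.19 that was 0.83 without the low libraries (edgeR adjusted p = 0.0185).

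Other genes had changes of like size in the 3 regions, with differences that did not pass. Tfrc changed by -0.70 ± 0.13, -0.52 ± 0.13 and -0.64 ± 0.13 in cerebellum, cortex and hippocampus, a cerebellum-minus-cortex difference of -0.18 ± 0.19. Abca8a changed by 1.58 ± 0.29, 1.13 ± 0.26 and 1.13 ± 0.24, and Bhlhe41 by 0.36 ± 0.09, 0.25 ± 0.09 and 0.34 ± 0.09. Tubb4a changed by -0.40 ± 0.08 in cerebellum, against 0.01 ± 0.08 in cortex and 0.05 ± 0.08 in hippocampus. Its differences, -0.40 ± 0.11 and -0.45 ± 0.11, did not pass (edgeR adjusted p = 0.343 and 0.167). A change particular to the cerebellum was not shown for it.

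**Figure D5:**
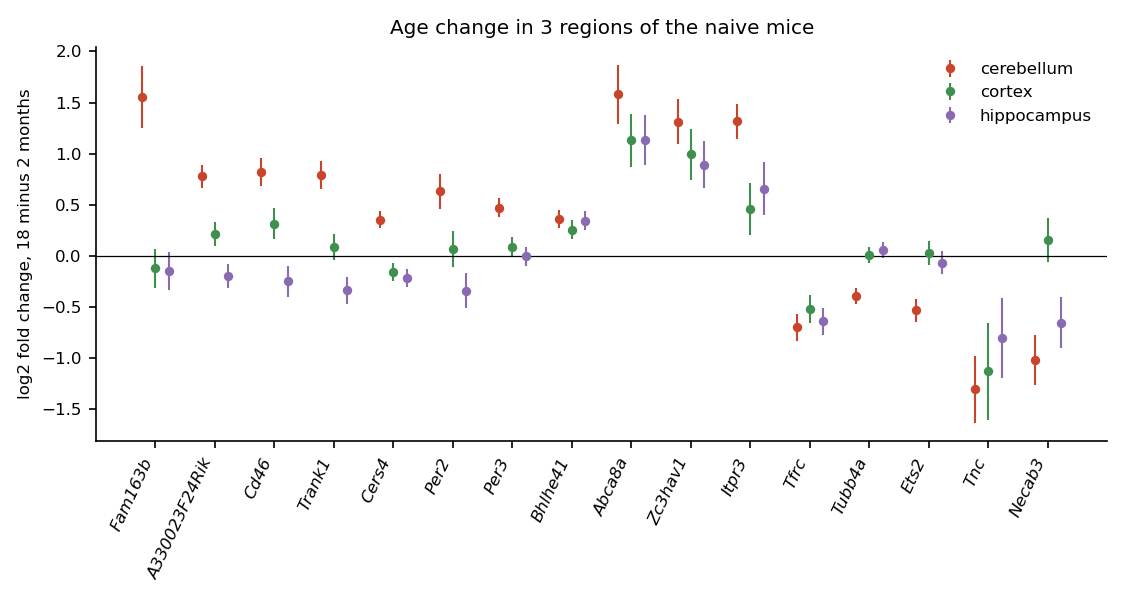
Points are log2 fold changes of 18 minus 2 months in naive mice (y axis) with their SE as bars, for 16 genes (x axis) in cerebellum (red), cortex (green) and hippocampus (purple). For Fam163b the cerebellum lies at 1.56 with the other regions near 0, while Abca8a, Zc3hav1, Bhlhe41 and Tfrc have changes of one sign in all 3 regions.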

How the data were processed

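Polyadenylated RNA of cerebellum was sequenced from 7 naive mice, within 29 cerebellum libraries that were fitted together. RNA was taken with RNeasy and made into Smart-Seq2 and Nextera XT libraries, per the labels' protocols. The submitters' processing notes name Trim Galore 0.3.7, STAR 2.5.3a and DESeq2 as tools and GRCm38 as the build, and the authors' use of each is not described there. The tool and annotation behind the counts are not given in the sources used here. The authors deposited raw counts per gene, for 35486 genes, of which 6251 were at 0 throughout. Total counts were 851288 to 18786091 over all cerebellum libraries.

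From these counts, edgeR 4.0.16 (R 4.3.3, limma 3.58.1) kept genes by its filter with a minimum count of 10 and a minimum total of 15, scaled libraries by TMM, and fitted all groups with a quasi-likelihood model. Genes passed at a Benjamini-Hochberg adjusted p under 0.05 over all tested genes. The SE is the size of the log2 fold change divided by the square root of F, and CPM carries no prior count. CPM is not per gene length, so classes of CPM sort genes by their counts, and so by precision, not by transcript abundance. The labels give each mouse its own number and say nothing of litters or cages, so p-values measure the spread between these mice. Within a group, libraries differed by more than counting noise, and none was a copy of another.

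The members and gene lists were chosen with earlier results of these data known. The genes named were up to 15 per direction with the largest change (at least 5 CPM, no overlap, outside the immune lists), up to 6 per list, up to 10 of at least 100 CPM, up to 12 DNA-binding factors per direction, and 6 genes followed in every case. Regions were compared in 1 fit over 87 libraries. The same mouse number marks the same mouse in the 3 regions, per the labels, although deviations of the same mouse correlated weakly (median 0.04 between cerebellum and cortex and 0.03 between cerebellum and hippocampus, over 29 mice), and the mouse was added to the model as a block in 1 alternative. Alternatives were DESeq2 1.42.0, limma-voom with sample weights, other size factors, no filter, fewer libraries, a minimum depth of 2500000 counts, the choroid plexus score and leaving out each library. The fit was tested on simulated data. Promoter and microRNA sequences are from RefSeq tables, and 17080 of the 17185 tested genes matched the annotation. Some genes are not reported here.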

Additional observations from a re-analysis of the deposited data

Results flagged for a closer look

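In 8 of 136 named genes, 1 of the 4 young mice lay far from the other 3 for the size of the group, where about 1 in 20 groups (6.8) would by chance. Tpbg was high in young replicate 20, at 16.3 CPM against 5.77 to 7.25 in the others. Necab3, a calcium-binding protein gene, was high in replicate 14, at 55.2 CPM against 42.3 to 44.4. In replicate 12, Ei24 was high at 152 CPM (147 to 148 in the others) and Snhg11 at 2046 CPM (1840 to 1873). In replicate 17, Atp1b2 was low at 1451 CPM (1745 to 1801), Atp1b1 at 1509 CPM (1613 to 1614) and Slc2a3 at 108 CPM (125 to 127 in the others). Slc38a5 was low in replicate 20, at 4.18 CPM against 5.47 to 5.62.

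Genes outside the immune lists whose age change differed between regions, by a test of the difference itself, included Trank1 (above) and the 4 below. The cerebellum-minus-cortex difference was 1.68 for Fam163b. The cerebellum-minus-hippocampus difference was 1.70 for Fam163b, 1.07 for Cd46, 0.57 for Cers4 and 0.98 for A330023F24Rik, and none of these passed in edgeR's test without young mouse 14.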

How the results depend on the processing

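Of the 133 named genes that passed, 55 passed in all 14 alternatives, 78 did not pass in at least 1, and 0 changed direction. The 411 genes of the age comparison became 678 with limma-voom (404 shared, 334 higher and 344 lower) and 238 with the choroid plexus score as a covariate (219 shared, 151 higher and 87 lower), and the cause was not tested. Leaving out 1 library gave 194 (18-month replicate 6) to 350 (2-month replicate 17), where fewer samples enter. DESeq2 gave 347 genes, other size factors 397, no filter 415, the 7 libraries alone 330 and the depth minimum 408. The share of higher calls was 55.5% in the edgeR fit, 49.3% with limma-voom and 63.4% with the covariate. For the difference from the cortex, 8 genes passed, 1 (18-month replicate 9) to 6 (2-month replicate 20) without 1 mouse, and 15 (8 shared) without libraries low in own-region markers, an alternative added after seeing the data. For the hippocampus, 10 passed, 0 (2-month replicate 14, with 1304 at an unadjusted p under 0.05 in edgeR) to 9 (2-month replicate 17) without 1 mouse, and 15 (5 shared) without the low libraries.

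With the mouse as a replicate block, 8 genes differed from the cortex (6 shared) and 9 from the hippocampus (8 shared). No paired analysis was possible because the 2 ages share no mouse for the age comparison itself. With 3 and 4 mice a group, failing the test does not show that a gene was unchanged.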
